A study of Homo sapiens with 2 samples.

Results

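The cytosolic ribosomal protein genes encode the protein subunits of the ribosome that translates nuclear mRNAs. Protein-coding genes of RefSeq, build GRCh38.p14 (hg38), were taken as members where the symbol was RPL or RPS plus a number with at most the suffix A, X, L or L1. RPLP0, RPLP1, RPLP2 and RPSA were added, and the S6 kinase genes were not members. This gave 83 of 19974 protein-coding genes on chromosomes 1 to 22 and X, 31 for the small and 52 for the large subunit. The rule used symbols alone and no measured value, though it was chosen with earlier results of these data known. A further 1 symbol met the rule but lies on chromosome 6 between 29.6 and 33.5 Mb, an interval that was left out. The members lie on 21 chromosomes, with 12 on chromosome 19 and 4 on X.

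Accessibility was measured by ATAC-seq, which uses the transposase Tn5 to cut DNA that is not packed in nucleosomes and to tag the cut ends. The cells were CAL27, an established line from a human squamous carcinoma of the tongue, thawed from frozen stock before nuclei were taken, per the labels; whether each library stands for its own culture is not given. The untreated library (treatment label none) held 18248413 tags, and the library of cells given 10 mM lactate for 24 h held 15401276 tags. With 1 library per group there is no replicate check, no test and no p-value, so every difference compares these libraries rather than the conditions. In bulk nuclei, more nuclei with an open site and more cuts per open site cannot be told apart. For 15 of 18 squamous epithelium markers, an accessible region was listed at a gene end in each library. All 5 endothelium markers had none in either. In both libraries a region was listed at 4 of 6 leukocyte markers, 3 of 6 fibroblast markers and 1 of 5 neuron markers. Over all protein-coding genes this share was 61.8%. The squamous share was 83.3%, with an exact binomial interval of 58.6 to 96.4 that held the share over all genes. The squamous markers TP63 and KRT14 had no region in either library, and KLF5 had a region in lactate alone. The squamous count thus did not set these markers apart from genes at large. An open gene end does not show that a gene is transcribed.

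Ribosomal protein genes are among the most highly transcribed genes of growing cells, and each subunit needs most of its proteins in equal number. Their promoters drive steady transcription and mostly lack a TATA box. Transcription typically starts at a cytosine followed by a run of pyrimidines, the terminal oligopyrimidine (TOP) tract, through which the mTOR pathway and the RNA-binding protein LARP1 adjust translation of these mRNAs. In squamous epithelium, as elsewhere, they are regarded as housekeeping genes.

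Starts of 66 members are listed in the RefSeq promoter table of GRCh38.p14, 11 of them with several starts. Of these, 8 promoters are shown because the results turn on them. RPL22 (chr1:6199566-6199695, minus strand) and RPL18 (chr19:48619149-48619278, minus strand) stand high in lactate, and RPL19 (chr17:39200223-39200352, plus strand) and RPL22L1 (chr3:170870166-170870295, minus strand) stand low. RPL29 (chr3:51995866-51995995, minus strand) was listed in lactate alone and RPL10L (chr14:46651752-46651881, minus strand) in neither library. RPS6 (chr9:19380207-19380336, minus strand) and RPLP0 (chr12:120201082-120201211, minus strand) serve as examples of the subunits. Each sequence runs from 100 bases before the first transcribed base to 30 bases counted from it, so the first transcribed base is at position 101. Capitals mark the unbroken run of C and T that holds the first transcribed base.
RPL22: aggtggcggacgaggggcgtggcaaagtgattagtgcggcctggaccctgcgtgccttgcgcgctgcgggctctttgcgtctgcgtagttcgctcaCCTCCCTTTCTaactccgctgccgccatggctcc
RPL18: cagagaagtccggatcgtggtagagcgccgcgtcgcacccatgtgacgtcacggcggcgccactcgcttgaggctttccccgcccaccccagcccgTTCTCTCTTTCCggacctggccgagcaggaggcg
RPL29: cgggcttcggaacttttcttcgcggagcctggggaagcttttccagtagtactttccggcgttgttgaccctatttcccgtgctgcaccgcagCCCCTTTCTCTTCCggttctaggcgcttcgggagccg
RPS6: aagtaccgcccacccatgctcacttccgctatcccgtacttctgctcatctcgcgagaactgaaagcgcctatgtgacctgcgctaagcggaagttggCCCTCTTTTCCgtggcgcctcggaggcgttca
RPLP0: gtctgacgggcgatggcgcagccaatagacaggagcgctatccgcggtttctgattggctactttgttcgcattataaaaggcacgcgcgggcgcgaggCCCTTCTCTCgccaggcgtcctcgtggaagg
RPL19: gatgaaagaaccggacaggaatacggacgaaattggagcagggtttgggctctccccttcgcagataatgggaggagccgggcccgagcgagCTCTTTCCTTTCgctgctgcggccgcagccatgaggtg
RPL22L1: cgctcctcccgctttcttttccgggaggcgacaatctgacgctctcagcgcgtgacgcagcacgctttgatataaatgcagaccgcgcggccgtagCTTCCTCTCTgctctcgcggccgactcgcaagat
RPL10L: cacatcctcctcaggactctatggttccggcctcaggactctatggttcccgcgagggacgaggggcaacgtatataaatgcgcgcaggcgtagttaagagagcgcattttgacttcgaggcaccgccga

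In 7 of these 8 promoters the first transcribed base lies in a pyrimidine run, of 10 bases in RPLP0 and RPL22L1 up to 14 in RPL29. In RPL10L, a retained copy of RPL10 without introns that is known from testis, transcription starts at G and no run is marked. The start shown for RPL19 is at T. A start at C followed by at least 4 pyrimidines, a definition chosen after the sequences had been seen, was present in 46 of 66 members (69.7%) and in 987 of 15812 protein-coding genes with a listed start (6.24%). The first base was C in 49 members (74.2%) and in 15% of those genes.

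In the 300 bases of the promoter window, from 250 before to 50 after the start, 8 motifs were searched on both strands, and none is contained in another. A gene counted where any listed start held the letters. CCGGAAG, the core bound by ETS factors, was in 34.8% of members and 16.5% of all genes. CTCTTTCC was in 16.7% and 4.03%, CTCGCGAG in 9.09% and 1.8%, and AAGATGGC in 10.6% and 4.67%. The GC box GGGCGG was in 59.1% and 64.2%, and CCAAT in 34.8% and 42.1%. TATAAA was in 10.6% and 12.4%, and the E box CACGTG in 7.58% and 10.9%. RPLP0, RPL22L1 and RPL10L hold TATAAA in the sequences shown, and RPS6 holds CTCGCGAG. In RPL18 and RPL19, CTCTTTCC lies inside the marked pyrimidine run, so its share is not separate from that of the run. In RPL29, CCGGAAG lies on the other strand, as CTTCCGG, and overlaps the end of the run. The share of CCGGAAG is thus not fully separate from the run either. How often either motif overlapped the run in other members was not counted. Matches describe letters, not bound factors.

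Tn5 cutting peaked just upstream of these starts. The highest summit of the region at the listed start lay at a median of -77 bp from the start, where negative is upstream, without treatment (64 members) and at -72 bp with lactate (65 members). Over all protein-coding genes the medians were -65 and -67 bp. In the untreated library 81.2% of members had the summit within 200 bp of the start, against 64.7% of all genes. In the lactate library the shares were 75.4% and 67.1%. Upstream of the start lay 81.2% of the members' summits in untreated and 83.1% in lactate cells, against 74.4% and 75.8% for all genes.

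**Figure D1:**
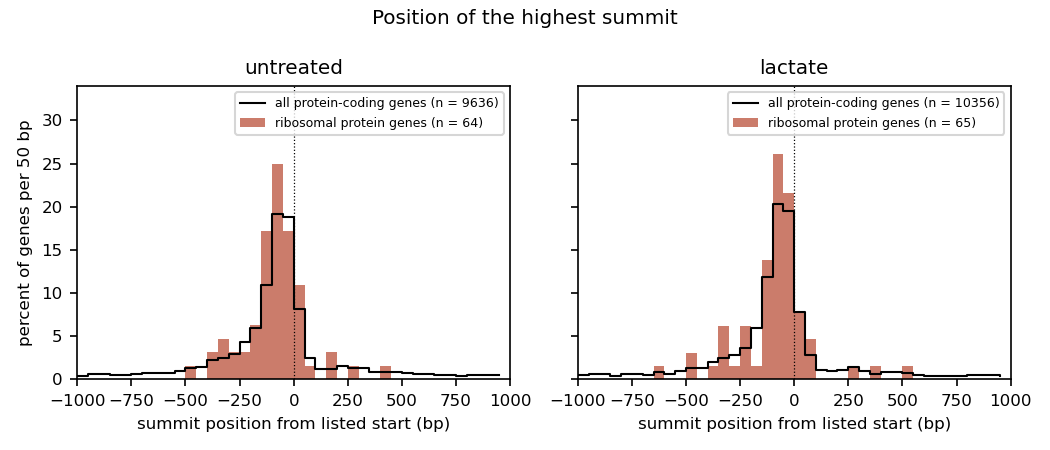
Position of the highest summit relative to the listed transcription start (x axis, bp, negative is upstream) as percent of genes per 50 bp (y axis), in each library, with bars for ribosomal protein genes and a line for all protein-coding genes, both for summits within 1000 bp of a start. Both sets peak within 100 bp upstream, and the members' medians were -77 bp without treatment and -72 bp with lactate.

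Both libraries cut at nearly the same place in most members. At 63 of the 80 members with a shared region, the summits of the libraries lay within 50 bp of each other, and at 14 they lay over 100 bp apart. The same shares over all genes were not counted, so whether members differ from other genes here is not known. The summits of RPS19 were 419 bp apart, those of RPL19 343 bp and those of RPS29 325 bp. Where the summits lie apart, a ratio compares different points of the same region. The members' regions had a median width of 731 bp untreated and 721 bp with lactate, against 759 and 760 bp for all genes. In the untreated list 51.2% of them held several summits and in the lactate list 45.0%, against 58.8% and 53.8% for all genes.

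Nearly every ribosomal protein gene had an accessible region at a gene end, that is within 1 kb of either annotated end. Of the 83 members, 80 (96.4%, exact binomial 95% interval 89.8 to 99.2) had one in both libraries, where the background over all protein-coding genes was 61.8%. RPL29 was the 1 member with a region in the lactate library alone, against a background of 6.09%, and no member had one in the untreated library alone. RPL10L and RPL26L1 had none in either library, against a background of 31.3%. All 31 small subunit genes and 49 of 52 large subunit genes were in both. The same count was 72 of 76 (94.7%) for mitochondrial ribosomal protein genes and 32 of 37 (86.5%) for proteasome subunit genes. All intervals in the text are 95% intervals for counting error only. Tags copied by PCR, or counted at a summit picked for its height, are not independent draws.

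RPL29, a large subunit protein that also binds heparin, had 22 tags at its lactate summit (chr3:51995802-51996089), at -45 bp from its start, with a fold enrichment over local background of 7.19. The lactate summit stood at 1.43 tags per 1000000 total tags. No untreated region was listed there, which does not set the untreated value at 0, since weaker sites are left out of a peak list. RPL10L had its nearest shared region 7802 bp away, with 18 untreated and 15 lactate tags. RPL26L1, a copy of RPL26, had 39 untreated and 44 lactate tags at its listed start (chr5:172958801-172959567), more than 1 kb inside the annotated gene.

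In tag height the median of the ribosomal protein genes stood somewhat above that of all genes in both libraries. The height is the number of extended tags over the highest summit of the member's strongest shared region, per 1000000 total tags of the library (CPM). Its median over the 80 members was 2.19 CPM with no treatment and 4.16 CPM with lactate. Over 12373 protein-coding genes with a shared region the medians were 1.86 and 3.51 CPM. Below those medians lay 22 members without and 30 with lactate. The highest member stood at 10.4 CPM in untreated and 16.3 in lactate cells, where the highest of all genes stood at 91.8 and 146. These are maxima of sets of unlike size, and the rank of the highest member among all genes was not counted. The median fold enrichment of members was 7.17 without and 10.3 with lactate, against 6.72 and 10.0 for all genes.

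The member with the most summit tags was RPL15, with 189 untreated and 251 lactate tags (chr3:23925217-23925437). That region belongs to a class of narrow single-summit regions, little wider than the 200 bp to which tags were extended, and lies at the far end of the gene. At the listed start of RPL15 the summits held 30 and 44 tags. RPL41, which encodes one of the shortest ribosomal proteins, followed with 91 untreated and 176 lactate tags (chr12:56117829-56118856). Its region lies within 1 kb of a listed start of ZC3H10. At its own start RPL41 had 49 and 46 tags (chr12:56116203-56116848). High values at both genes thus come from regions away from their own starts.

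RPL23A, of the polypeptide exit region, had 95 untreated and 116 lactate tags (chr17:28719198-28720261), in a region within 1 kb of a start of RAB34. RPL13 of the large subunit had 72 and 124 tags (chr16:89560351-89560839). Both belong, with RPL15 and RPL41, to the 5 members of greatest mean height over both libraries, and both are higher in the lactate library in CPM.

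Lowest by the mean height over both libraries, among the 80 members with a shared region, was RPS4X, the X-linked small subunit gene with a partner on Y, with 14 untreated and 23 lactate tags (chrX:72276947-72277489), or 0.767 and 1.49 CPM. RPL32 had 19 and 20 tags (chr3:12841223-12842066). RPL19 had 26 and 16 tags (chr17:39199891-39200451). In lactate alone, RPL19 and RPL32 lay below RPS4X. RPL14 had 19 and 27 tags (chr3:40457153-40457640), and RPS28 had 23 and 32 (chr19:8321004-8321639). All 5 regions lie at a listed start. Across the 80 members the log2 heights of the libraries had a Pearson correlation of 0.85 and a Spearman correlation of 0.84. Over all genes both were 0.89. Both libraries come from the same line, and each point is the same region in both.

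**Figure D2:**
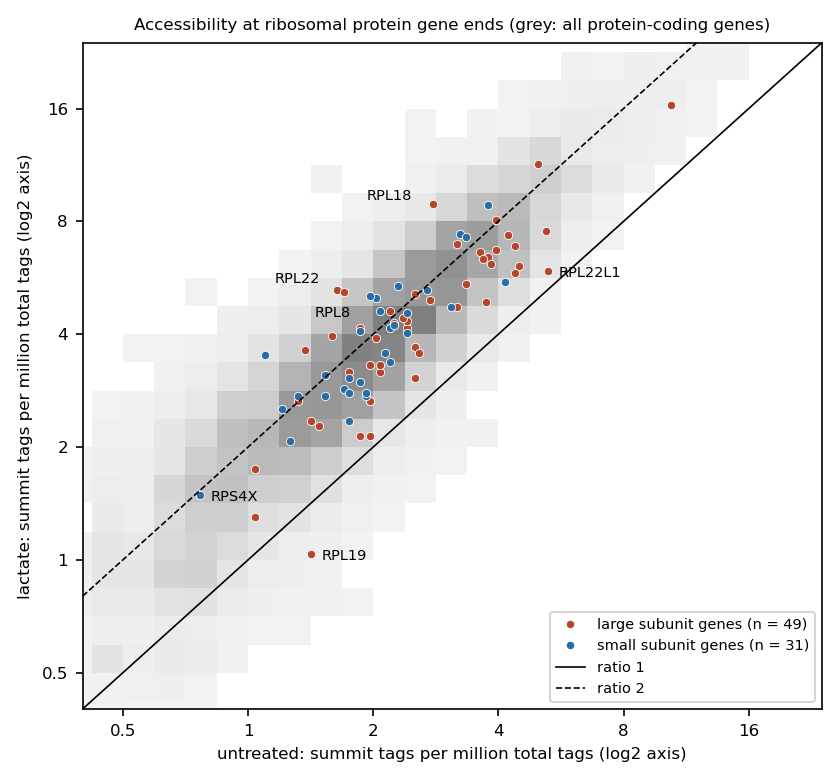
Summit tags per 1000000 total tags (CPM) in the untreated (x axis) and lactate library (y axis), both log2 axes, for 49 large and 31 small subunit genes, over a grey density of all protein-coding genes. Members lie inside the cloud of all genes and, apart from RPL19, above the line of ratio 1, with 24 at or above the line of ratio 2.

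In CPM, 79 of 80 members were higher in the lactate library (98.8%), and 96.8% of all genes were too. The ratio of lactate to untreated height had a median of 1.73 over members and 1.84 over all genes, and ranged from 0.729 to 3.20 among members. At 56 of 80 members the counting interval of the ratio lay above 1, against a background of 66.4%, and at 0 it lay below 1, against 0.0566%. A ratio of at least 2 was reached by 24 members (30.0%), against a background of 39.1%. The shared regions as a whole stood higher in lactate, and their median ratio was 1.66 (0.73 on the log2 scale) over 73366 shared regions without the narrow class, and it was larger where summits held more tags. With that median set to 1 instead, the members' median ratio was 1.04 and 0 of 80 reached 2. That count follows from the scaling, since no member ratio exceeded 3.20. The same share over all genes was not counted, so it is not read as a trait of the members.

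A relative ratio was therefore formed. Shared regions were sorted into 20 bins by their summit tags, and each ratio was divided by its bin's median. Its median was 0.939 over the 80 members and 1.01 over all genes, and 32 of 80 members lay above 1, against 50.6% of all genes. A relative ratio of at least 1.5 was found at 4 members, against a background of 9.26%, and a value of at most 1/1.5 at 5 members (6.25%), against 7.59%. At these limits neither direction was more frequent among members than among all genes. The counting interval held 1 at 67 of 80 members, lay above 1 at 4, against a background of 6.42%, and below 1 at 9, against 6.5%. More members lay below than above 1, by their values and by their intervals, and over all genes the directions were nearly even. The counts by interval are small, and whether members differ from all genes in direction was not tested.

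Among the 4 members with high relative ratios were RPL22, RPL8 and RPL18, all of the large subunit. RPL22, known for binding small viral and cellular RNAs, had 30 untreated and 81 lactate tags (chr1:6199464-6199885), or 1.64 and 5.26 CPM. Its relative ratio was 1.73 (1.12 to 2.72), with the untreated summit at -59 bp and the lactate summit at -73 bp from the start. The fold enrichment at RPL22 was 7.83 without and 18.6 with lactate. In both libraries the peak thus stood upstream of the pyrimidine run shown above, and it was taller in lactate by either measure.

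RPL18, mutated in rare cases of Diamond-Blackfan anaemia, had 51 untreated and 137 lactate tags (chr19:48619039-48619730), or 2.79 and 8.90 CPM, and a relative ratio of 1.59 (1.14 to 2.24). The region of RPL18 also lies within 1 kb of a listed start of SPHK2. The region's summits lay at -235 bp (untreated) and -216 bp (lactate) from the RPL18 start. RPL8, next to the peptidyl transferase centre, had 31 and 80 tags and a relative ratio of 1.65 (1.08 to 2.58). With gene ends widened to 2 kb another region of RPL8 had more tags, and its relative ratio was 0.947.

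Next below the limit stood RPL17, at 1.48 (0.907 to 2.47), from 25 untreated and 56 lactate tags (chr18:49487012-49487668). The region lies within 1 kb of a listed start of C18orf32. At the listed start of RPL17 the summits held 12 and 15 tags, with a relative ratio of 1 (0.437 to 2.34).

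**Figure D3:**
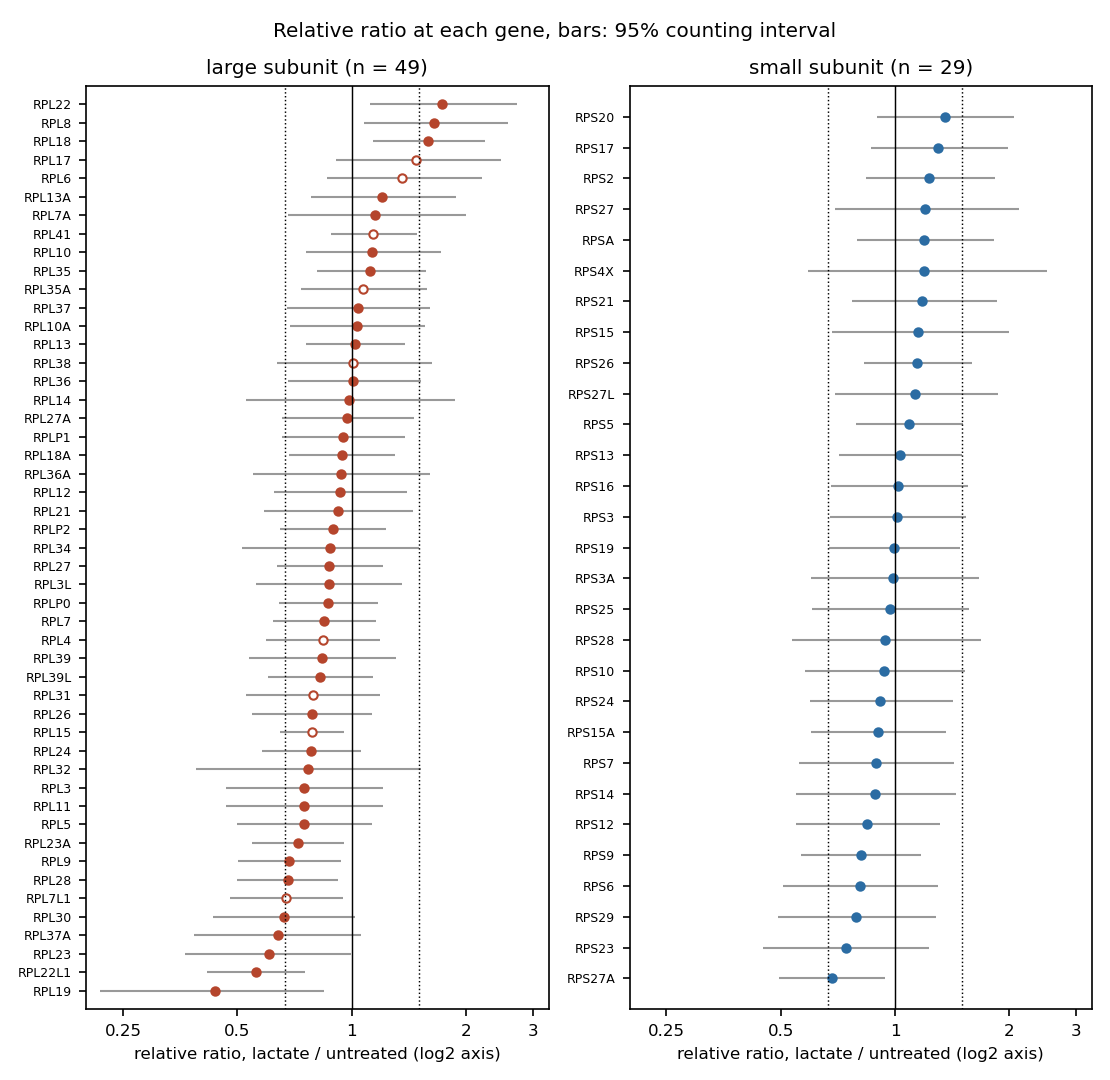
Relative ratio of lactate to untreated summit tags (x axis, log2) for 49 large (left) and 29 small subunit genes (right), with 95% counting intervals as bars, dotted lines at 1.5 and 1/1.5, and open circles where the region is not at a listed start. RPL22, RPL8 and RPL18 lie beyond 1.5, and RPL19, RPL22L1, RPL23, RPL37A and RPL30, all large subunit genes, lie beyond 1/1.5.

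The 5 members with low relative ratios all encode large subunit proteins. RPL19 was the 1 member with a ratio under 1, at 0.729 (0.365 to 1.41), from 1.42 CPM untreated and 1.04 CPM with lactate. Its relative ratio was 0.436 (0.218 to 0.844). Its untreated summit lay 17 bp downstream of a listed start, and its lactate summit at -286 bp from another. The fold enrichment of RPL19 was 5.42 without and 4.03 with lactate. The untreated maximum thus lay close to the pyrimidine run shown above, and the lactate maximum further upstream.

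RPL22L1, the paralog of RPL22, had 96 untreated and 91 lactate tags (chr3:170869707-170870553), or 5.26 and 5.91 CPM, and a relative ratio of 0.560 (0.416 to 0.754). Its height in untreated cells was the greatest among members whose strongest region lies at a listed start. RPL23, one of the ribosomal proteins that bind MDM2, had 36 and 33 tags (chr17:38853357-38854013) and a relative ratio of 0.604 (0.365 to 0.997). RPL37A had 34 and 33 tags (chr2:216498603-216499185) and a relative ratio of 0.640 (0.384 to 1.06). RPL30 had 46 and 47 tags and a relative ratio of 0.662 (0.432 to 1.02). At RPL37A and RPL30 the counting interval held 1. Just outside the limit stood RPL7L1 at 0.672, RPL28 at 0.678, RPS27A at 0.681 and RPL9 at 0.685.

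By subunit, the median relative ratio was 1.01 over the 31 small subunit genes and 0.876 over the 49 large subunit genes with a shared region. At the small subunit genes 12 ratios (38.7%) were at least 2, 1 relative ratio (3.23%) was at least 1.5 and 0 were at most 1/1.5. At the large subunit genes the counts were 12 (24.5%), 3 (6.12%) and 5 (10.2%). The backgrounds over all genes were 39.1%, 9.26% and 7.59%. The median height was lower at small subunit genes, at 1.97 CPM untreated and 3.57 lactate, than at large subunit genes, at 2.41 and 4.42. The quartiles of the relative ratio were 0.897 and 1.18 for small and 0.766 and 1.03 for large subunit genes, so the groups overlapped widely. Whether the subunits differ was not tested.

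The P stalk, which recruits elongation factors to the large subunit, comprises RPLP0, RPLP1 and RPLP2. RPLP0 had 77 untreated and 113 lactate tags (chr12:120200748-120201852) and a relative ratio of 0.868 (0.644 to 1.17). RPLP1 had 50 and 76 tags (chr15:69452232-69453519) and 0.948 (0.655 to 1.38), and RPLP2 had 67 and 98 tags (chr11:808849-810063) and 0.891 (0.646 to 1.23). The 3 genes lay close together in relative ratio, and each interval held 1.

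RPL5 and RPL11 bind the smallest ribosomal RNA as a particle that also restrains MDM2. RPL5 had 47 untreated and 55 lactate tags and a relative ratio of 0.748 (0.498 to 1.13). RPL11 had 36 and 41 tags and a relative ratio of 0.751 (0.468 to 1.21). These genes on chromosome 1 lie in the lower part of the members' range, with both intervals holding 1. RPL10, which joins the large subunit late in its maturation, had 40 and 71 tags and a relative ratio of 1.13 (0.760 to 1.72). RPL13A, known from an interferon-induced complex that silences mRNAs, had 34 and 64 tags and 1.20 (0.782 to 1.88).

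Among small subunit genes, RPS6, whose protein is the substrate of the S6 kinases, had 35 untreated and 43 lactate tags (chr9:19379831-19380680), or 1.92 and 2.79 CPM, and a relative ratio of 0.810 (0.507 to 1.30). RPS19, often mutated in Diamond-Blackfan anaemia, had 44 and 70 tags and 0.992 (0.671 to 1.48). RPS14, lost in a form of myelodysplastic syndrome, had 32 and 43 tags and 0.886 (0.548 to 1.45). These 3 genes were indistinguishable from regions of equal tags at this depth.

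RPS3, at the mRNA entry channel, had 41 and 65 tags and a relative ratio of 1.01 (0.675 to 1.54). RPSA, also described as a laminin receptor, had 38 and 71 tags and 1.19 (0.795 to 1.82). RPS4X, with few tags in both libraries, had a relative ratio of 1.19 (0.589 to 2.51). RPS27A, which is made as a fusion with ubiquitin, had 76 and 85 tags (chr2:55231634-55232903), or 4.16 and 5.52 CPM, and 0.681 (0.494 to 0.941). It was the lowest relative ratio among the 31 small subunit genes, in a region within 1 kb of a start of CLHC1.

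Of the 7 paralogs with the suffix L or L1, 5 were open at a gene end in each library, and their median relative ratio was 0.827. Among the pairs, RPL22L1 and RPL22 lay furthest apart in relative ratio. The paralog was the taller in untreated cells, at 5.26 against 1.64 CPM, and nearly equal to RPL22 in lactate cells, at 5.91 against 5.26. Their relative ratios of 0.560 and 1.73 have intervals that do not overlap. For RPS27L and RPS27 the relative ratios were 1.13 and 1.20, from 28 and 48 tags at RPS27L and 22 and 39 at RPS27. RPL39L, a paralog known from testis, had 70 and 95 tags and 0.827, where RPL39 on X had 38 and 49 tags and 0.836. In both of these pairs the relative ratios differed by less than the counting error.

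RPL3L, the paralog known from striated muscle, had 38 untreated and 51 lactate tags and a relative ratio of 0.870, where RPL3 had 36 and 41 tags and 0.751. The region of RPL3L lies within 1 kb of a start of MSRB1. RPL7L1 had 68 and 75 tags at a gene end, in a region within 1 kb of a start of PEX39. At its own start RPL7L1 had 37 and 58 tags, with a relative ratio of 1.02 (0.661 to 1.58). RPL7 had 72 and 103 tags and a relative ratio of 0.846. RPL26L1 had 0.744 (0.472 to 1.18) at its own start, where RPL26 had 58 and 73 tags and 0.785 (0.548 to 1.13). RPL10L had no region, and RPL10 stood at 2.19 and 4.61 CPM.

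Some of these gene ends lie close to other genes, and the strongest region was not always the promoter. The picked region lay within 1 kb of a listed start of the member itself in 54 of the 80 cases. In 9 cases it did not, and for the other 17 members no start was used. In 17 of 80 cases a listed start of another gene lay within 1 kb of the region, and in 26 an annotated end of another gene. The same shares over all genes were not counted, so these counts are not read as a trait of the members. Examples are LIAS at RPL9, NDUFA7 at RPS28, TRAPPC4 at RPS25, RAB34 at RPL23A and BTK at RPL36A. A region of this kind cannot be given to a single promoter.

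When the region at the member's listed start was taken, 64 of 66 members had a shared region there. Their median height was 2.05 CPM untreated and 3.25 lactate, against 1.92 and 3.51 over all genes, so that in lactate they no longer stood above other genes. Their median ratio was 1.68 against 1.85, and 13 (20.3%) had a ratio of at least 2, against a background of 39.6%. Their median relative ratio was 0.924, with 2 (3.12%) at 1.5 or more and 5 (7.81%) at 1/1.5 or less. Over all genes the shares were 9.35% and 7.3%. RPL41 stood at 0.608 (0.398 to 0.929) at its own start in place of 1.14 at the picked region. Its summits there lay 414 bp apart, at -324 bp untreated and 90 bp downstream with lactate, so that ratio compares different points. RPL35A, from 48 and 48 tags, stood at 0.639 (0.419 to 0.974) in place of 1.07. RPL4, from 42 and 44 tags, stood at 0.679 (0.435 to 1.06) in place of 0.839. The start region of RPL35A also lies within 1 kb of a listed start of DRC9, and that of RPL4 within 1 kb of one of ZWILCH. Neither region can be given to a single promoter.

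Other groupings of the members showed small spreads. The 18 genes mutated in Diamond-Blackfan anaemia, a failure of red cell formation, had a median relative ratio of 0.925, against 0.945 over the 62 members outside that group. The 27 hosts of small nucleolar RNAs, which guide ribosomal RNA modification from the introns of these genes, had 0.974 against 0.936. The 12 members on chromosome 19 had 1.02 against 0.916 elsewhere. The 4 members on X had 1.04, with heights of 1.75 CPM untreated and 2.76 lactate at the median. These groups overlap in their members and were not tested against each other.

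Set beside other housekeeping complexes, the cytosolic ribosomal protein genes lay between them in median relative ratio. Mitochondrial ribosomal protein genes, which serve the separate ribosome of the mitochondrion, had a median of 0.998 over 71 shared regions. There 25 ratios (35.2%) were at least 2, 2 relative ratios (2.82%) were at least 1.5 and 12 (16.9%) were at most 1/1.5. Proteasome subunit genes had a median of 0.924 over 32 regions, with 8 (25%), 0 and 5 (15.6%). The cytosolic members had 24 (30%), 4 (5%) and 5 (6.25%), and the backgrounds were 39.1%, 9.26% and 7.59%. Median heights were 1.97 CPM untreated and 3.25 lactate for mitochondrial ribosomal protein genes, and 2.79 and 4.42 for proteasome subunit genes. The cytosolic members, at 2.19 and 4.16, lay between them in both libraries. At listed starts this order held untreated, with 1.97, 2.05 and 2.79 CPM for mitochondrial, cytosolic and proteasome genes. In lactate it did not, with 3.31, 3.25 and 4.35 CPM.

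**Figure D4:**
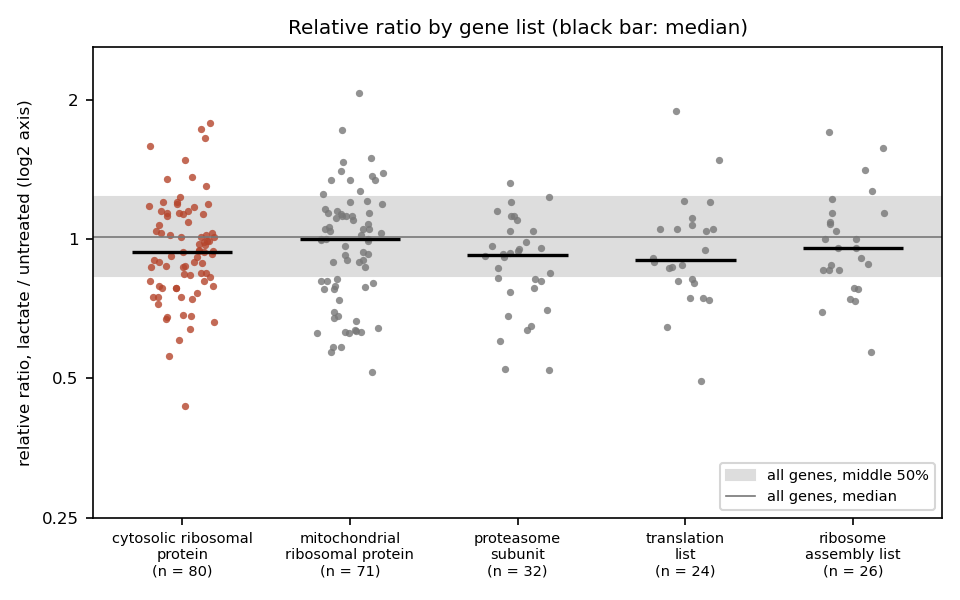
Relative ratio (y axis, log2) of each gene with a shared region in 5 gene lists (x axis), with the list's median as a black bar, and the median and middle 50% of all protein-coding genes in grey. The medians run from 0.902 for the translation list to 0.998 for mitochondrial ribosomal protein genes, each inside the grey band.

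A list of 26 was formed of genes chosen either as translation factors or for mRNAs with a TOP tract. Whether each gene has such a tract was not checked. Of the 26 genes, 24 had a region in both libraries, with a median relative ratio of 0.902. A relative ratio of at least 1.5 was found at 1 (4.17%), and of at most 1/1.5 at 2 (8.33%), against backgrounds of 9.26% and 7.59%. RACK1, a scaffold on the small subunit, had 50 untreated and 38 lactate tags and a relative ratio of 0.493 (0.314 to 0.766). HNRNPA1, an RNA-binding protein, had 124 and 135 tags and 0.644 (0.501 to 0.828). EIF3L, of a translation initiation factor, had 26 and 77 tags and 1.89 (1.20 to 3.08). The elongation factor gene EEF2 had a region in the lactate library alone, with 32 tags. EEF1A1 stood at 0.909 (0.664 to 1.25), inside the range of the members.

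Of 29 ribosome assembly genes, 27 were open at a gene end in each library and 2, BYSL and PES1, in neither. The median relative ratio was 0.954 over 26 shared regions, with 2 high (7.69%) and 1 low (3.85%) by the same limits. RRN3, which brings RNA polymerase I to the ribosomal RNA genes, had 26 and 68 tags and a relative ratio of 1.70 (1.06 to 2.78). NOP56, of the small nucleolar particles, had 21 and 50 tags and 1.57 (0.926 to 2.75). HEATR1, of early small subunit processing, had 49 and 43 tags and 0.569 (0.369 to 0.875).

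The 10 genes of the S6 kinases and of growth control all had a region in both libraries, with a median relative ratio of 1.01. By the same limits 2 (20%) were high and 1 (10%) was low, against backgrounds of 9.26% and 7.59%. MTOR, the kinase that controls translation of TOP mRNAs, had 46 and 116 tags and a relative ratio of 1.54 (1.08 to 2.21). RPTOR, its partner in the complex that does so, had 19 and 11 tags and 0.443 (0.190 to 0.979). RPS6KA3, a ribosomal S6 kinase gene, had 8 and 26 tags and 2.44 (1.07 to 6.23). LARP1 stood at 0.745 (0.477 to 1.17). The extreme values of this list rest on few tags, and for RPTOR and RPS6KA3 the intervals are wide.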

How the data were processed

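ATAC-seq peak lists of 2 CAL27 libraries, grouped by treatment label, were analysed. Read trimming and mapping with fastp 0.20.0 and BWA 0.7.12 to hg38, and MACS2 2.1.0, are named in the submitters' processing notes, while the file headers name MACS 2.2.7.1. The authors made a separate peak list for each library without a control, per the file headers, at a q-value threshold of 0.05, a shift of 100 bp and an extension of 200 bp. The deposited pileup is a signal, the number of extended tags over a summit, not scaled for depth. The deposited fold enrichment is a ratio to local background and is the authors' own value for each peak. Positions and widths were deposited in base pairs. Tags of 129 and 130 bp were counted as single ends, per the file headers. It was not checked if the totals hold 1 or both mates of each pair. With both, tags are not independent and the intervals are too narrow. Reads of near-identical copies such as processed pseudogenes can be lost or misplaced, by an amount not tested.

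Regions of both lists on chromosomes 1 to 22 and X were merged where they overlapped by at least 1 bp. A member's region was the shared region with the most summit tags of both libraries among those within 1 kb of either annotated gene end. Summit tags were given per 1000000 total tags (CPM), and the lactate value by the untreated value, with exact conditional Poisson intervals. The relative ratio divides this by the median of its bin, with shared regions sorted into 20 bins by summed summit tags and narrow single-summit regions left out of the median. Shares have exact binomial intervals. No test was possible with 1 library per group. The calculation was tested on simulated data. Starts and promoter letters came from RefSeq tables of GRCh38.p14.

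Genes named were the 5 highest and 5 lowest in mean height and in relative ratio, members in 1 library alone or in neither, those past a relative ratio of 1.5 or 1/1.5, paralog pairs, and 15 chosen members. RPL28 and RPL9, beside the limit, the other genes at shared regions, the members with a region away from their own start, RPS29 and the list genes were named after their values had been seen. Some genes that the rule names are not reported here. Members and lists were chosen with earlier results of these data known. Alternatives varied the window, the end used, list length, scaling, bins, reference regions and summit distance. Python 3.11.15, numpy 2.4.6, scipy 1.17.1, pandas 2.3.3 and matplotlib 3.10.9 were used.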

Additional observations from a re-analysis of the deposited data

How the results depend on the processing

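Of the alternative values for counts and medians over the members, 51 lay close to those reported and 4 did not. With listed starts only, 13 members of 64 had a ratio of at least 2 and the median lactate height was 3.25 CPM. When the libraries were scaled by the median ratio of shared regions, the median ratio was 1.04. Then 0 members had a ratio of at least 2, which follows from the scaling, and the share over all genes was not counted. Over all settings the median relative ratio ran from 0.924 to 0.954, with 2 to 4 high and 4 to 6 low members. For single genes 90 values kept their direction and 1 reversed. The relative ratio of RPL8 was 0.947 with a 2 kb window, where another region was picked. Leaving out narrow regions at members, or regions within 1 kb of another gene's listed start, was chosen after seeing the data. Without the latter, 67 members had a shared region, with a median relative ratio of 0.948. No paired analysis was possible because there is 1 library per group. Depth limits single genes, since 67 of 80 relative ratios had intervals that held 1.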

Other observations

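The promoters of the ribosomal protein genes were slightly poorer in G and C and less depleted of CpG than other promoters. Over the 82 listed starts of 66 members the median GC content of the 300 bases was 59.7%, against 62.3% over 22132 starts of all genes. The median ratio of observed to expected CpG was 0.895 against 0.738, and the lower quartile was 0.829 against 0.352. The first transcribed base was a purine at 31.7% of the members' starts and at 86.4% of all starts.

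Relative ratios were also compared between members with and without given letters in the promoter. The 45 members with a start at C followed by at least 4 pyrimidines had a median relative ratio of 0.930, and the 19 without had 0.892. With CCGGAAG it was 0.913 (22 members) and without 0.924 (42 members). The 6 members with TATAAA had 0.904, against 0.924 for the 58 without. Members with CTCTTTCC had 0.967 (11 members) and those without 0.914 (53 members). With GGGCGG the median was 0.948 (37 members) and without it 0.868 (27 members). With CACGTG it was 0.992 (5 members) against 0.914 (59 members), and with CCAAT 0.883 (22 members) against 0.936 (42 members). With AAGATGGC it was 0.918 (7 members) against 0.930 (57 members), and with CTCGCGAG 0.892 (6 members) against 0.924 (58 members). Across the 8 motifs the ranges of members with and without the letters overlapped, and no difference was tested.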
